A study of Mus musculus with 4 samples.

Results

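The expressed Zfp genes are the zinc finger genes whose symbol is Zfp followed by a number alone, without Zfp42, and which were chosen by a mean level of at least 5 CPM over the 4 libraries (counts of read pairs on a gene, scaled to library size). The rule kept 258 of 332 such genes, or 77.7%, whereas 41.0% of all 24054 gene rows reached the same level. The cut rests on the measured level, so the levels that chose the genes are given as a description. Just inside it were Zfp943 at 5.19, Zfp688 at 5.20 and Zfp456 at 5.35 CPM, and just outside it were Zfp791 at 4.98, Zfp811 at 4.81 and Zfp449 at 4.68 CPM. Of the 74 genes under the cut, 7 had no count in any library and 32 had a mean under 1 CPM.

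RNA-seq was performed on mouse embryonic stem (ES) cells, in 1 library of the wild-type line wt26 and 1 library of each of 3 Morc3 rescue clones (T131-3C, T131-3D and T131-3M, here 3C, 3D and 3M). Per the study's methods, each rescue clone is a single clone of the Morc3 knock-out line KO27-2, itself a single clone from wt26, to which wild-type Morc3 was returned by PiggyBac transfection under puromycin selection. All 3 clones thus share the knock-out background and the selection, and the contrast of rescue with wild type contains both together with the returned Morc3. The knock-out cells were not analysed here, so no value below separates loss of Morc3 from its return.

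Between 13620914 and 18789457 read pairs fell on genes per library. Morc3, the targeted gene, had 161 CPM in wild type and 655, 497 and 609 CPM in 3C, 3D and 3M, above wild type in 3 of 3 clones. The 8 ES cell markers summed to 3958 CPM in wild type and 4075 to 4224 CPM in the clones. Since wild type has 1 library, the error of each comparison was estimated from the clones and taken to hold for wild type too.

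C2H2 zinc finger proteins bind DNA through tandem fingers, and many of the family also carry a KRAB domain that recruits the corepressor Trim28 and, through it, the histone methyltransferase Setdb1. KRAB zinc finger proteins are known in ES cells for silencing endogenous retroviruses and for guarding imprinted loci. Their genes lie in clusters that arose by repeated duplication, and neighbours are often similar in sequence. The Zfp symbol also covers unrelated proteins with other kinds of zinc finger.

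The genes were unevenly placed, with 66 on chromosome 7, 33 on chromosome 17, 27 on chromosome 13 and 19 on chromosome 8. Chromosome 13 holds the members that stood furthest from wild type together. The sequences below are the 250 bases before an annotated start (RefSeq, GRCm38.p6). They belong to 3 neighbours of that chromosome and to Zfp229, the chromosome 17 gene with the largest difference of all. The genes were chosen after the values were seen. For each gene, the listed start nearest its upstream end was used. For Zfp759, Zfp429 and Zfp229 that start lies inside the annotated gene. Capitals mark matches to any of the patterns described below, on either strand. Zfp759 lies at chr13:67127978-67128227 on the plus strand, Zfp953 at chr13:67360573-67360822 on the minus strand, Zfp429 at chr13:67399768-67400017 on the minus strand and Zfp229 at chr17:21733474-21733723 on the plus strand.
Zfp759: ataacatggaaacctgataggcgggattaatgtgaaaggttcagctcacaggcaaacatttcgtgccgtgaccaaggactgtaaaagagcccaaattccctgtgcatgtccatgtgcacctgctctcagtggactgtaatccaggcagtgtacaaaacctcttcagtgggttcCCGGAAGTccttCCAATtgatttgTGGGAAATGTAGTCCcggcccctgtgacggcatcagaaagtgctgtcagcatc
Zfp953: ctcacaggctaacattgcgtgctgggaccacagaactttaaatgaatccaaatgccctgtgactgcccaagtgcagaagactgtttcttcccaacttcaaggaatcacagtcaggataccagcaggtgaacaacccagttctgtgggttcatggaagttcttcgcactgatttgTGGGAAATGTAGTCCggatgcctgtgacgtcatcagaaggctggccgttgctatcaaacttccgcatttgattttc
Zfp429: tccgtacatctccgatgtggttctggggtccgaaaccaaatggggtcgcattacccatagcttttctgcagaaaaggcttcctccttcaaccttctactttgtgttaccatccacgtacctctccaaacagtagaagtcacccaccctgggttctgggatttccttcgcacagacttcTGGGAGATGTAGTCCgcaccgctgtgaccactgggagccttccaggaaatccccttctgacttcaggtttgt
Zfp229: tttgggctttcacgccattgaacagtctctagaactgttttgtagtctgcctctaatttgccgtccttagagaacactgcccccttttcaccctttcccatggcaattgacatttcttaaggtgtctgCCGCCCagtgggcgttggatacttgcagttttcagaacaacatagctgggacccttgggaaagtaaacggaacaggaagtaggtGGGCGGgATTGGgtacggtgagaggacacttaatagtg

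The 3 chromosome 13 promoters each hold the pattern TGGGANATGTAGTCC near the start, and that of Zfp229 does not. It is the longest ungapped run they share with at most 1 differing position (N), and it was looked for after these sequences were read, so the genes that gave it are among its matches. It was present in 7 of 23 chromosome 13 members with a promoter window in the table, or 30.4%, in 3.11% of the 193 members elsewhere, and in 0.526% of the windows of all 10458 tested genes with one. The 7 genes were Zfp759, Zfp458, Zfp595, Zfp953, Zfp456, Zfp429 and Zfp65, which lie within one stretch of the chromosome. With windows at the gene's outermost start only, the pattern was present in 2 of 9 chromosome 13 members, or 22.2%. The shares there were 2.5% of 80 members elsewhere and 0.536% of 5596 tested genes. Each window ran from 250 bases before to 50 bases after the start.

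In the same windows 7 other motifs were searched on both strands, where a match may overlap another motif. Matches to the YY1 motif GCCATNTT were found in 15.7% of the 216 member windows and 8.86% of all windows. The CCAAT box was found in 48.6% and 39.3%, the GC box GGGCGG in 45.4% and 66.0%, and the TATA box TATAAA in 7.41% and 6.79%. The remaining shares were 9.72% and 8.36% for the ETS motif CCGGAAGT, 8.80% and 10.7% for the NRF1 motif, and 0.463% and 1.09% for the CGCG element. With the 89 members and 5596 genes whose window sits at the gene's outermost start, the order turned for the ETS motif, at 6.74% and 7.97%, and for the CGCG element, at 1.12% and 0.876%, and the YY1 shares were 19.1% and 8.97%. None of the 23 chromosome 13 windows held the YY1 motif, against 17.6% of the 193 windows of members elsewhere, and 4 members of chromosome 13 have no window in the table. The median number of CG dinucleotides per window was 15 in members, 9 in those of chromosome 13 and 21 in all tested genes. These are descriptions of letters in a window and carry no test.

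Members with a known role covered a wide range of levels. Zfp57, a KRAB zinc finger protein that protects methylation at imprinted loci, had the highest level per length, with a mean of 92.8 CPM per kb of exon sequence, followed by Zfp106 at 81.0, Zfp207 at 47.0, Zfp296 at 45.4 and Zfp281 at 45.2. Zfp207 encodes a spindle assembly factor and Zfp281 a transcription factor of pluripotent cells. The lowest were Zfp398 at 0.493, Zfp521 at 0.764 and Zfp651 at 0.833 CPM per kb. The median member was at 3.91 CPM per kb, and 43 members exceeded 10.

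**Figure D1:**
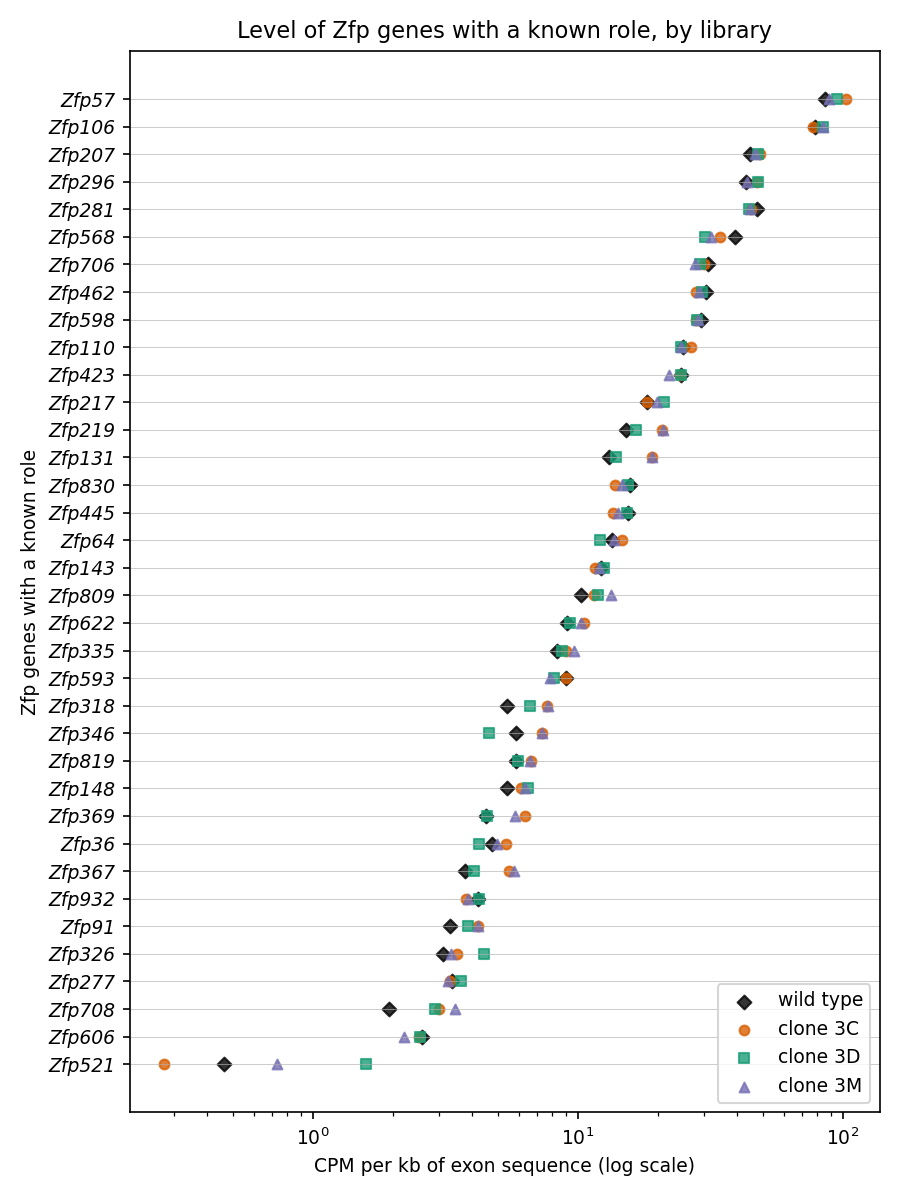
Level of 36 Zfp genes with a known role in each library, in CPM per kb of exon sequence on a log scale, ordered by the mean over the 4 libraries. The 4 points of a gene lie close together for most genes, and those of Zfp521 are spread widely.

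Among genes that silence retroviruses or guard imprints, none passed the test, and they lay on both sides of wild type. Zfp57 had 324 CPM in wild type and 388, 358 and 336 CPM in 3C, 3D and 3M, all above wild type. Zfp445, which acts with Zfp57 at imprinted loci, had 114 CPM in wild type and 100, 113 and 105 CPM in the clones. Zfp809, which silences retroviruses that use a proline primer, had 30.4 CPM in wild type and 34.05, 35.3 and 39.6 CPM in the clones. The adjusted p values of these differences were not under 0.01 (adjusted p = 0.60, 0.72 and 0.54 in edgeR's quasi-likelihood test, Benjamini-Hochberg adjusted). Zfp568, which represses a placental transcript of Igf2, was below wild type in all clones, with 289 CPM against 253, 222 and 234. Its log2 fold change was -0.29 (SE 0.09, adjusted p = 0.37 from edgeR's test). Zfp708, which binds retroelements and lies on chromosome 13, was above wild type in all clones, with 5.09 CPM against 7.86, 7.63 and 9.04 and a log2 fold change of 0.69 (SE 0.21, adjusted p = 0.38 from edgeR's test).

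Other members with a known role lay on both sides of wild type, and Zfp281, Zfp143, Zfp462 and Zfp598 were close to it. Zfp281 had 233 CPM in wild type and 222, 218 and 221 CPM in the clones, and Zfp143, an activator that binds many promoters, had 42.5 CPM and 40.5, 43.7 and 41.8 CPM. Zfp462 had 326 CPM in wild type and 299, 314 and 306 CPM in the clones. Zfp598, a ubiquitin ligase that senses collided ribosomes, had 113 CPM and 108, 110 and 111 CPM. The log2 fold changes of these 4 genes ran from -0.09 to -0.02, and all but Zfp143 were below wild type in every clone. So were Zfp593, Zfp830, Zfp706, Zfp606 and Zfp423, with log2 fold changes from -0.12 to -0.06. Zfp148 and Zfp91 lay above wild type in every clone, with log2 fold changes of 0.22 and 0.30, and neither passed the test after adjustment (adjusted p = 0.48 and 0.43 from edgeR). Zfp219, Zfp217 and Zfp296 were also above it in every clone, with log2 fold changes of 0.36, 0.12 and 0.10. Zfp217 was nearly level with wild type in 3C, at 112.3 against 112.1 CPM, and Zfp296 in 3M, at 88.7 against 87.7 CPM. Zfp207, Zfp335, Zfp819, Zfp622 and Zfp326 were above wild type in every clone too, with log2 fold changes from 0.10 to 0.27. Every clone was above wild type for 28.7% of all genes and below it for 28.4%. From the same list of roles, Zfp503, Zfp703 and Zfp352 were under the cut, and Zfp24 stands in the tables as Zfp191, with 46.1 CPM in wild type and 45.0, 48.7 and 48.3 CPM in the clones.

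The first comparison asked whether the genes differed between the rescue clones and wild type. All 258 were among 13267 genes tested, and none passed an adjusted p of 0.01 in edgeR's test, where 0.00754% of all genes did. The lowest adjusted p of a member was 0.19, for Zfp229. At an unadjusted p under 0.05, 13 members were higher and 3 were lower, against 5.92% and 4.42% of all genes in those directions, and limma-voom called 0 members. DESeq2's Wald test called 1 member, Zfp229, at the same threshold, where it called 0.67% of the genes with an adjusted p. All 3 clones lay above wild type for 81 members and below it for 70, against 28.7% and 28.4% of all genes.

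Most members differed little. The median log2 fold change was 0.01 in members, with quartiles of -0.09 and 0.15, and 0.01 in all genes tested. In 93.8% of members the difference was under 0.5 in size on the log2 scale, as in 85.8% of all genes. The SD between the clones had a median of 0.106 in members and 0.128 in all genes on that scale. Members were chosen at 5 CPM or more and the tested genes were not, so these shares and SDs come from sets that differ in level. Summed over the 258 genes, the level was 10040 CPM in wild type and 10182, 10151 and 10202 CPM in 3C, 3D and 3M.

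Zfp229, on chromosome 17, stood furthest from wild type. It had 26.6 CPM in wild type and 70.9, 50.4 and 63.8 CPM in 3C, 3D and 3M, and the lowest clone had 733 counts against 507 in the deeper wild-type library. Its log2 fold change was 1.21 (SE 0.21, adjusted p = 0.19 from edgeR's test), and DESeq2 gave 1.21 (SE 0.23) with an adjusted p of 4.0e-05. The 14 other tested genes that start within 0.5 Mb of it, a distance set after the values were seen, most of them zinc finger genes, had a median of 0.06 and ran from -0.35 to 0.73. Only 1.23% of its 50-base stretches occur in another gene's transcripts.

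Outside chromosome 13, 5 of 231 members were higher and 3 were lower at an unadjusted p under 0.05, against 5.92% and 4.42% of all genes. The lower ones were Zfp41, Zfp740 and Zfp568. Zfp395 on chromosome 14 had 30.6 CPM in wild type and 43.1, 44.3 and 42.3 CPM in the clones, with a log2 fold change of 0.50 (SE 0.10, adjusted p = 0.21 from edgeR's test). The other member of that chromosome, Zfp219, which missed that unadjusted level, had 68.5 CPM and 93.9, 74.98 and 94.4 CPM, and the other 463 tested genes there had a median log2 fold change of 0.35. Zfp318, on chromosome 17, had 74.8 CPM in wild type and 106, 90.7 and 107 CPM in the clones. Every clone exceeded wild type for these 3 genes, as for 28.7% of all genes. The same held for 363 of the 463 other tested genes of chromosome 14, and 228 of those 463 were higher at an unadjusted p under 0.05. On chromosome 17 every clone was above wild type for 164 of the 644 other tested genes.

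**Figure D2:**
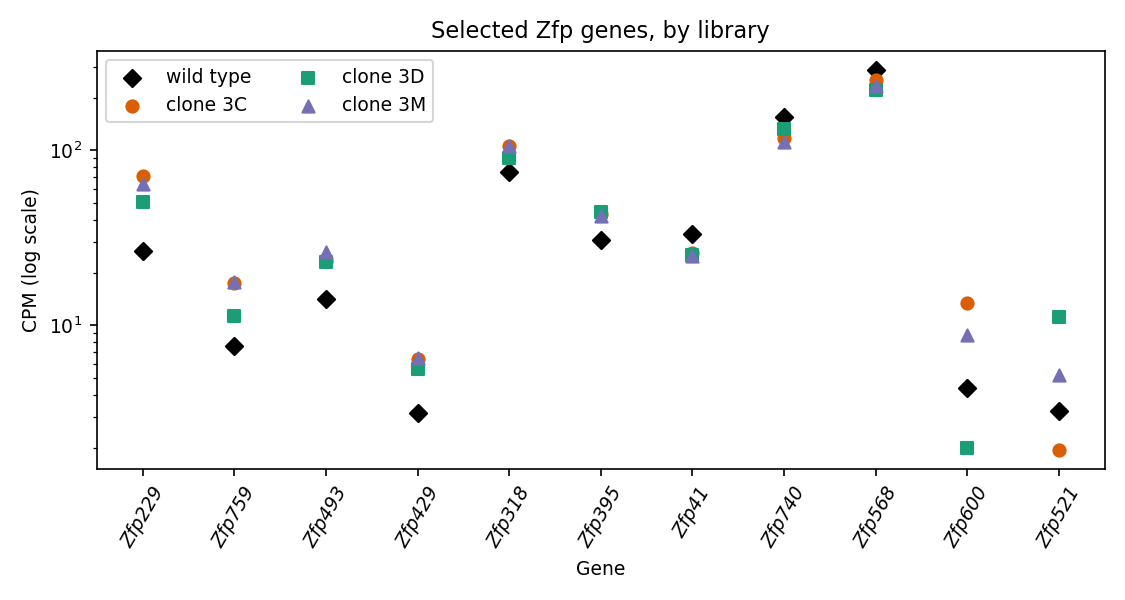
CPM on a log scale of 11 members in wild type and in each rescue clone, chosen after the values were seen for their distance from wild type or spread between clones. The clones of Zfp229 sit between 50.4 and 70.9 CPM above 26.6 CPM in wild type, and those of Zfp600 lie on both sides of wild type.

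The SD between clones exceeded the size of the log2 fold change in 114 members. The share was not computed over all genes, in which the median SD was 0.128, against 0.106 in members, a set chosen at 5 CPM or more. Of the 114, 2 varied most. Zfp521, a cofactor known from neural and blood lineages, had 3.25 CPM in wild type and 1.93, 11.1 and 5.16 CPM in 3C, 3D and 3M. Zfp600 had 4.35 CPM in wild type and 13.4, 1.99 and 8.84 CPM, and 81.2% of its 50-base stretches also occur in other genes, foremost Rex2, so that its counts are uncertain. Both genes had clones on either side of wild type, and both passed the cut on level through the clones, with wild type under 5 CPM. The SD between clones exceeded 0.5 on the log2 scale in 4 members, the others being Zfp516 and Zfp459. That share was not computed over all genes either. Zfp459 lies on chromosome 13, where the other tested genes had a median SD of 0.293, against 0.097 in members on other chromosomes.

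The second comparison set the 27 members of chromosome 13 against the remaining 231. Their median log2 fold change was 0.48, with medians of 0.61, 0.11 and 0.62 in 3C, 3D and 3M, whereas members elsewhere had a median of -0.003 and clone medians of -0.04, 0.03 and -0.01. In 3C and 3M, 27 of 27 lay above wild type, and in 3D 21 did. All 3 clones were above wild type for 21 of them and below for 0, and they supplied 8 of the 13 members higher at an unadjusted p under 0.05. Of the 27, 4 were under 5 CPM in wild type and passed the cut through the clones, in which they are high. These were Zfp712, Zfp458, Zfp456 and Zfp429. All 4 are among the 21, and Zfp458 and Zfp429 are among the 8, so these counts partly follow from the choice of genes. All clones were above wild type for 28.7% of all genes and for 242 of the 485 other tested genes of chromosome 13, of which 66 were higher at that p, against 5.92% of all genes. The comparison was chosen with the difference known, so it is given as a description with no test.

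**Figure D3:**
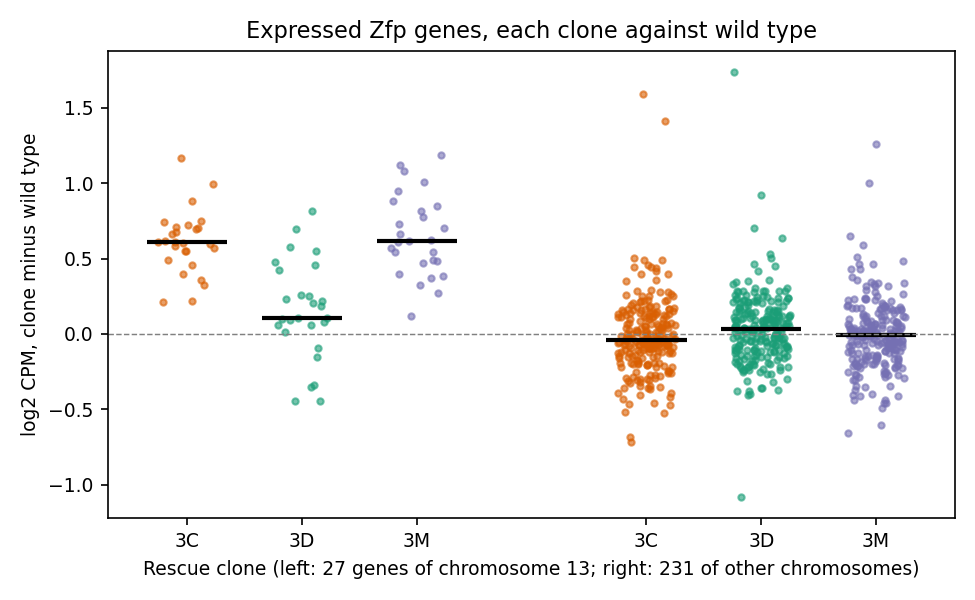
Difference of each clone from wild type in log2 CPM for the 27 members of chromosome 13 (left) and the 231 members of other chromosomes (right), 1 point per gene, with a black bar at the median. The chromosome 13 genes are centred at 0.61 and 0.62 in 3C and 3M and at 0.11 in 3D, and the others near 0 in each clone. Of the 27, 4 were under 5 CPM in wild type and passed the cut through the clones.

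The other genes of chromosome 13 lay on the same side of wild type. The 485 tested there that are not members had a median log2 fold change of 0.34, with 0.47, 0.02 and 0.47 in 3C, 3D and 3M. The mean of 3C and 3M exceeded 3D by a median of 0.46 in members, with 27 of 27 in that direction, and by 0.46 in the other genes, with 428 of 485. Summed over the 27 members, the level was 468 CPM in wild type and 692, 484 and 694 CPM in the clones. The part of whole-chromosome differences in the values of the single genes was not tested.

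Within chromosome 13, 16 members lie between 67038594 and 67827000 (GRCm38.p6), and their median was above wild type also in 3D. The medians were 0.69, 0.24 and 0.72 in 3C, 3D and 3M, and all 3 clones were above wild type for 14 of 16. The 11 other tested genes of the stretch had medians of 0.46, 0.26 and 0.69, and all 3 clones were above wild type for 7. The 11 members elsewhere on the chromosome had medians of 0.49, 0.06 and 0.48, with all 3 clones above for 7. Over all genes that share was 28.7%. Zfp759 had 7.66 CPM in wild type and 17.4, 11.3 and 17.6 CPM in the clones, with a log2 fold change of 1.01 (SE 0.30, adjusted p = 0.37 from edgeR's test). Zfp493 had 14.2 CPM and 23.2, 23.0 and 26.2 CPM, a log2 fold change of 0.77 (SE 0.14, adjusted p = 0.20 from edgeR), and for these genes clone 3D was above wild type, level with 3C for Zfp493. Zfp429 had 3.15 CPM and 6.38, 5.64 and 6.45 CPM, and like Zfp712, Zfp458 and Zfp456 it was under 5 CPM in wild type, so it entered through the clones in which it is high. The 12 members of the stretch at or over 5 CPM in wild type, a subset taken after the values were seen, had medians of 0.65, 0.23 and 0.72, with all clones above wild type for 10.

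**Figure D4:**
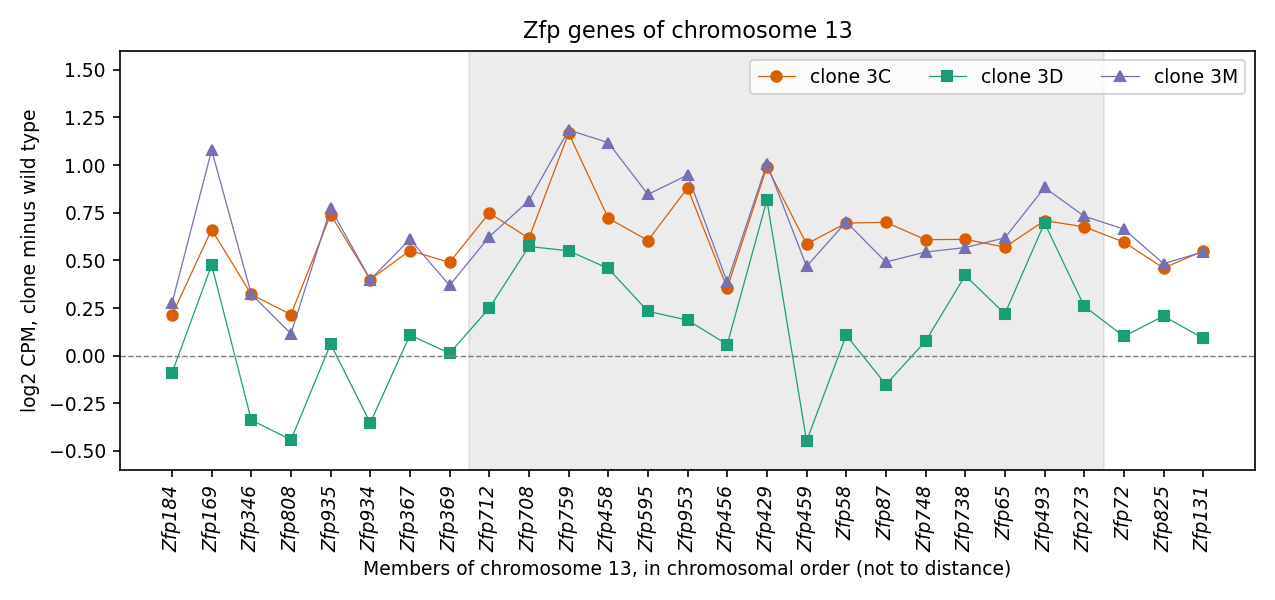
Difference of each clone from wild type in log2 CPM for the 27 members of chromosome 13, in the order of their position and not to distance, with the 16 members of one stretch shaded. Clone 3D lies below the mean of 3C and 3M for 27 of 27 genes, and within the shaded stretch it is above wild type for 14 of 16. Of the 16, Zfp712, Zfp458, Zfp456 and Zfp429 were under 5 CPM in wild type.

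Other members of the stretch went against this in 3D. Zfp459 had 51.7 CPM in wild type and 77.7, 37.9 and 71.6 CPM in 3C, 3D and 3M, so that 3D alone was below wild type, and Zfp87 had 15.2 CPM and 24.8, 13.7 and 21.4 CPM. In the stretch, the 7 members whose window holds the shared promoter pattern had a median log2 fold change of 0.71 and a range of 0.28 to 1.01, and the 7 with a window that lacks it had 0.54 and 0.27 to 0.69. The pattern came from Zfp759, Zfp953 and Zfp429, which were picked among the largest differences, and without them the remaining 4 had a median of 0.54, as did the genes that lack it. Zfp458 and Zfp456 among the 4, and Zfp712 among those that lack it, passed the cut on level through the clones. So few genes remain that the medians cannot be compared, and no difference was tested. Members with known roles outside the stretch were Zfp346, Zfp367, Zfp369 and Zfp131. Zfp131 had 60.2 CPM in wild type and 88.1, 64.1 and 87.8 CPM in the clones, and Zfp346, which binds double-stranded RNA, had 24.4 CPM and 30.6, 19.3 and 30.6 CPM.

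Members that lie next to each other were then followed along the other chromosomes, in runs of at least 6 with gaps of at most 1 Mb, a rule set after the values were seen. Of 9 runs, the chromosome 13 run had the highest median and a run of 6 genes on chromosome 15, from 75615200 to 76925693, the lowest. In the latter all 3 clones were below wild type for 6 of 6 genes, with medians of -0.32, -0.21 and -0.27 in 3C, 3D and 3M. Its first gene, Zfp41, had 33.1 CPM in wild type and 25.8, 25.2 and 24.9 CPM in the clones, with a log2 fold change of -0.39 (SE 0.10, adjusted p = 0.32 from edgeR's test). The 52 other tested genes within the run had a median of -0.15, and 28 of them were below wild type in all clones. The other 7 runs had medians between -0.06 and 0.06.

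**Figure D5:**
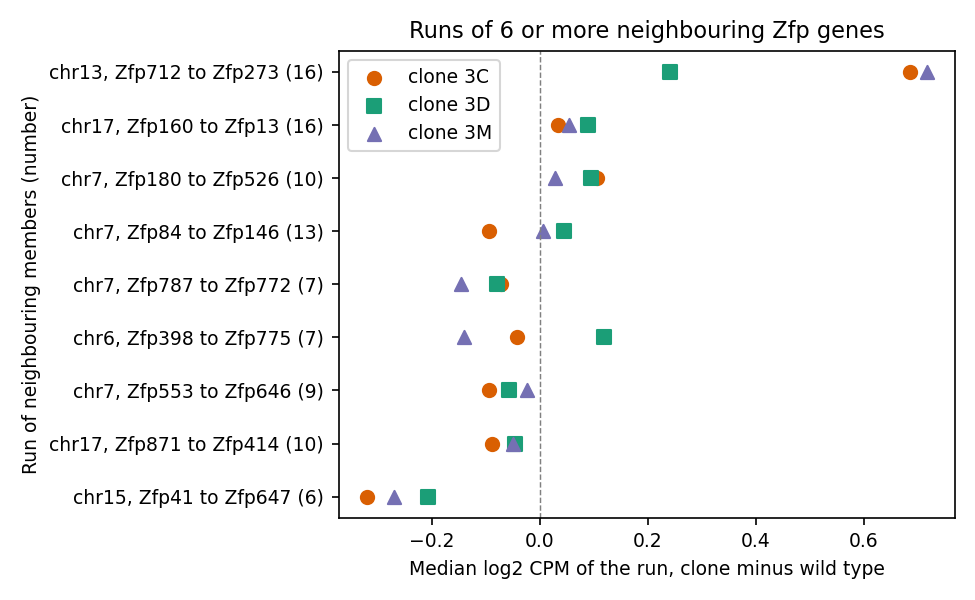
Median difference of each clone from wild type in log2 CPM over 9 runs of neighbouring members, named by their first and last gene with the number of members. The chromosome 13 run lies to the right in each clone, at 0.24 in 3D and at 0.69 and 0.72 in 3C and 3M, and the chromosome 15 run lies to the left in each.

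Zfp740, further along chromosome 15, had 156 CPM in wild type and 117, 132 and 111 CPM in the clones. With it, 8 of the 9 members of that chromosome were below wild type in all 3 clones, and the 9 had a median of -0.21. The other 515 tested genes there had a median of -0.05, and 199 of them were below in all 3 clones. Over all genes that share was 28.4%.

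Members and other genes alike passed the test more often once clone 3D was left out. The share of other chromosome 13 genes called was not computed, and the share of members called higher was near that of all genes without 3D. Without it, edgeR called 8 members higher, 5 of them on chromosome 13, and 1 lower, against 2.51% and 0.665% of all genes tested in those directions. The 8 were Zfp229, Zfp953, Zfp759, Zfp131, Zfp318, Zfp459, Zfp493 and Zfp219, and the lower one was Zfp740. Zfp229 then had a log2 fold change of 1.34 with an adjusted p of 4.7e-05, and Zfp740 one of -0.45 with an adjusted p of 0.0052. Without 3C or without 3M no member was called.

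Genes of the corepressor through which KRAB zinc finger proteins act were also compared. Of 16 genes of the KRAB silencing machinery, 0 were called, and 1 was higher and 0 were lower at an unadjusted p under 0.05, with a median log2 fold change of 0.02. The share higher, 1 of 16, is near the 5.92% of all genes. Trim28 had 1787 CPM in wild type and 1769, 1569 and 1716 CPM in the clones, and Setdb1 had 195 CPM and 216, 201 and 204 CPM. The gene higher at that level was Atrx, a chromatin remodeller that deposits histone H3.3 with Daxx, with 347 CPM in wild type and 454, 446 and 456 CPM in the clones.

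Reads of similar genes can be lost or shared, since only uniquely mapped pairs were counted. Of the 258 members, 105 share no 50-base stretch with a transcript of another locus, 24 share 10% or more, a limit set after the values were seen, and 5 share at least 50%. On chromosome 13, 7 members share 10% or more, among them Zfp808 with 28.2%.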

How the data were processed

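RNA-seq counts from 3 Morc3 rescue clones and 1 wild-type library were used. Per the study's methods, RNA was depleted of rRNA, libraries were directional, and 50 bp read pairs were aligned to mm10 with STAR. The authors deposited raw counts of uniquely mapped pairs per gene, and the reverse-strand column was used. The sources used here do not name the annotation. Rows that name no gene were left out, so that 52.7% of all pairs were used in wild type and 45.1% to 47.0% in the clones. Unmapped pairs were 14.5% in wild type and 21.0% to 23.0% in the clones. Tests used edgeR 4.0.16 under R 4.3.3, with glmQLFit, glmQLFTest, TMM scaling, filterByExpr and Benjamini-Hochberg adjustment at 0.01. The SE was the log2 fold change over the square root of F. Printed CPM carry TMM factors, and clone differences a prior count of 2. The steps were tested on simulated counts. Positions and promoters came from RefSeq GRCm38.p6, where 258 members matched, and exon lengths and 50-base stretches from GENCODE vM21. Alternatives included DESeq2 1.42.0 and limma 3.58.1. The members and lists were chosen with earlier results of these data known. Named members were those with a known role, the 5 highest and lowest differences, the extremes of chromosome 13 and of level, those at the cut, and those called under any test. Protein identity was not analysed here.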

Additional observations from a re-analysis of the deposited data

Results flagged for a closer look

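Reads on the strand opposite to Zfp760, a chromosome 17 member, were not used in any comparison. They were 6 counts in wild type and 27, 12 and 18 in 3C, 3D and 3M, so the lowest clone, with 12 counts, was more than 2 times wild type after scaling to library size. This was the only member with at least 10 such counts in each clone and that excess, a rule set after the values were seen. The difference was not tested.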

How the results depend on the processing

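The 3 medians (all members, chromosome 13, other chromosomes) moved by less than the SD of the clone medians under every alternative run. No member was called under any scaling, filter or strand alternative at an adjusted p of 0.01. DESeq2's Wald test called 1 member and 64 genes with its independent filtering set to the 0.01 threshold, which leaves 244 members with an adjusted p. Its default filtering, run after the first count had been seen, called 1 member and 59 genes, with all 258 members given an adjusted p. Zfp229 was the member called under both. The number of genes called among all was 0 with 10 counts required in every library, with limma-voom and with edgeR's legacy method, and limma-voom put 5 members lower at an unadjusted p under 0.05. Leaving out each clone in turn gave 0 to 9 members called, 0 to 420 genes called, 6 to 31 members higher and 2 to 12 lower at an unadjusted p under 0.05. The 9, 420, 31 and 12 came without 3D, and the 6 without 3M. Among named genes, the sign turned for Zfp808 with TMM scaling without chromosomes 13 and 14 (0.0048), and for Zfp64 with no low-count filter (-0.0012), with 10 counts in every library (-0.0017) and with limma-voom (-0.0037). Leaving out clones turned it within -0.041 to 0.045 for Zfp277, -0.14 to 0.17 for Zfp808, -0.098 to 0.010 for Zfp943, -0.060 to 0.070 for Zfp64, -0.055 to 0.037 for Zfp398, -0.019 to 0.044 for Zfp110, -0.048 to 0.11 for Zfp36, -0.045 to 0.0095 for Zfp143 and -0.021 to 0.30 for Zfp651. No paired analysis was possible because wild type has 1 library, so the groups share fewer than 2 replicate numbers. Counting depth limits the members near 5 CPM, the lowest count of any being 26.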
